A study of Mus musculus with 12 samples.

Results

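The lungs of male mice kept in hyperoxia or in room air were compared across all genes that the array measured. Wild-type C57BL/6J males of 8 to 10 weeks breathed either room air or an oxygen fraction above 0.95 for 48 h, and whole lungs were frozen. Total lung RNA was hybridised to Affymetrix Mouse Gene 1.0 ST arrays. Probes spread along each gene are summarised there into 1 log2 value per transcript cluster, so that a difference of 1 is a doubling. There were 3 room air and 3 hyperoxia arrays of males, 6 of the 12 arrays of the series, and every array held RNA pooled from 4 mice. The other 6 arrays were the same design in females. They are used to test whether the sexes differed in the response, to check the labelled sex and in the alternative fit with all 12 arrays. The error of each value is therefore the spread among pools, and no mouse carried a transgene or a deletion. The members described are the 19938 genes that carry 1 symbol in the platform annotation.

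Oxygen at high pressure in the alveoli raises the production of reactive oxygen species in the mitochondria and at the membranes of lung cells. The thin wall of the alveolus is built of flat type 1 epithelial cells, surfactant-making type 2 cells, 2 kinds of capillary endothelium and the fibroblasts and pericytes between them, and endothelium and type 1 cells are known to be sensitive to oxygen. Cells answer oxidants through the transcription factor NRF2, which KEAP1 holds back in unstressed cells, damage to DNA through p53, and shortage of amino acids or stress in mitochondria through ATF4, whose own translation rises when the initiation factor eIF2 is phosphorylated.

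Before any comparison, the pools were checked against their labels. Uty, Kdm5d and Eif2s3y, genes of the Y chromosome, lay between 8.93 and 10.09 in all 6 pools, and the mean of these genes and Xist was 8.63 to 9.33 against 7.36 to 7.71 in the female pools. Surfactant protein genes of type 2 cells were among the brightest, with Sftpc between 13.75 and 14.10, as was Ager of type 1 cells, between 12.74 and 12.98. Array medians were 8.17 to 8.20 in room air and 8.12 to 8.17 in hyperoxia. Across clusters the pools correlated with 0.975 to 0.995 within a group and 0.973 to 0.987 between groups. A pair of tissues at the edge of the lung varied from pool to pool. The mean of 19 genes of cardiac muscle, which lines the large pulmonary veins, was 10.66, 8.92 and 9.54 in room air pools 1 to 3 and 8.41, 9.50 and 8.72 in the hyperoxia pools. The groups overlapped for that list, and 0 of the 19 genes were called. Its median log2 fold change was -0.69 all the same, with 17 genes negative and 2 positive. With 1 pool left out, 0 to 6 of its genes were called lower. The mean of 17 genes of squamous epithelium was 8.28, 8.32 and 7.08 in room air and 7.07, 8.41 and 7.66 in hyperoxia, again with overlap and 0 of 17 called. Krt4 and Krt13, keratins that define that epithelium, had log2 fold changes of -0.60 and -0.45 and did not pass the test. The part of these pool differences in the results was not tested gene by gene beyond a fit with the squamous mean as a covariate.

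**Figure D1:**
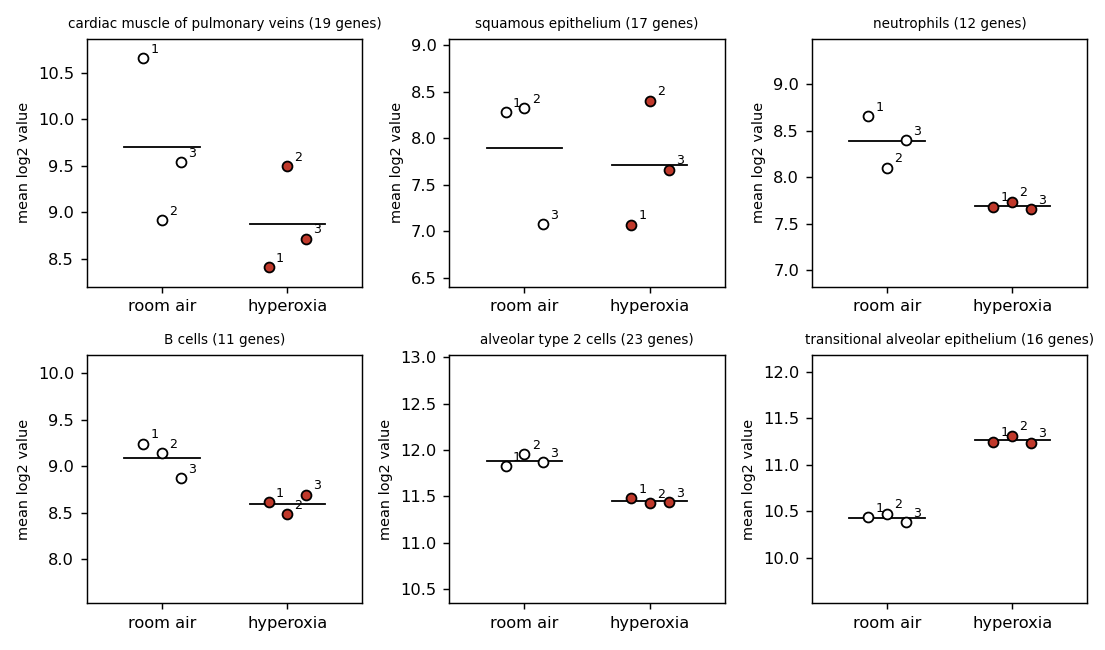
Mean log2 value of the genes of 6 marker lists (vertical axis, log2) in each male pool, with open points for room air, filled points for hyperoxia, the pool number beside each point and a bar at the group mean. Cardiac muscle and squamous epithelium overlap between the groups, whereas neutrophil, B cell and type 2 cell lists lie lower in all 3 hyperoxia pools and the transitional epithelium list lies higher.

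A gene was called when its Benjamini-Hochberg adjusted p from limma over all 35556 clusters was under 0.05 and its fold change was at least 1.4 in either direction. Of the 19938 genes 1835 were called (9.20 percent), with 1047 upregulated (5.25 percent) and 788 downregulated (3.95 percent). Over all clusters, 1364 were higher (3.84 percent) and 1151 lower (3.24 percent). At 2-fold or more, 203 genes were higher and 87 lower, and at 4-fold or more 20 and 4. The median log2 fold change of all genes was 0.01. The pools of the groups were fully separated in each of the 1835 called genes. They were also separated in 7979 of all genes (40.0 percent), so the absence of overlap alone marks nothing particular here. Calls were rare among dim genes, with 0 of the 719 genes whose mean log2 value was under 5, and 1 higher and 2 lower of the 1258 between 5 and 6.

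**Figure D2:**
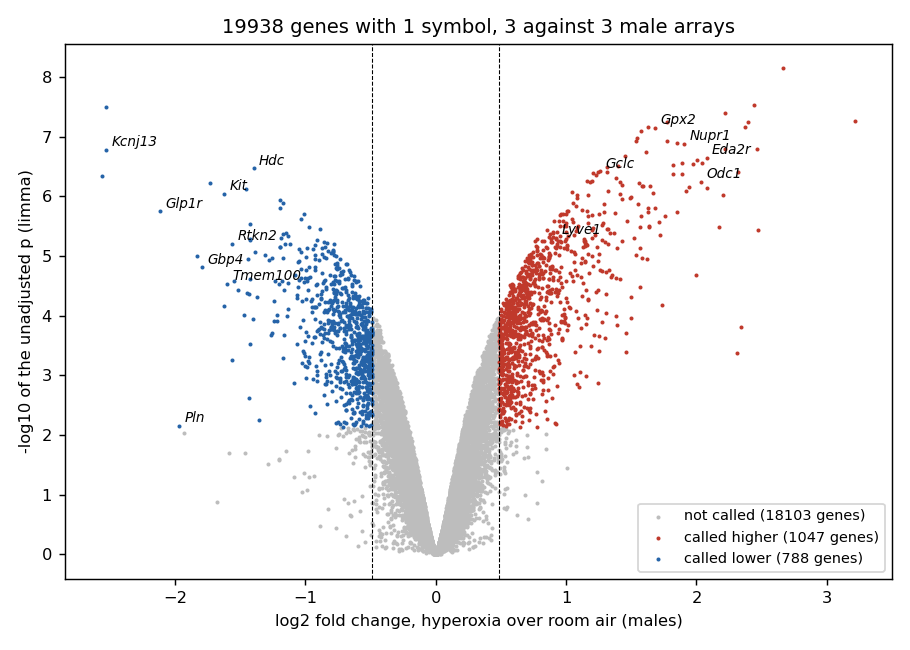
Male log2 fold change, hyperoxia over room air (horizontal axis), against the negative log10 of the unadjusted limma p (vertical axis), 1 point per gene, with dashed lines at a fold change of 1.4 and names for 14 genes described in the text. The genes called higher (red) extend to larger fold changes than those called lower (blue), and Pln stands apart with a large fold change but a modest p.

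The naming rule left out genes that the study names and genes known from earlier results of these data, some of which changed more. Of the genes it gave, Eda2r, Gadd45g, Odc1 and Spink5 had the largest increases. Eda2r, a receptor of the tumour necrosis factor receptor family on the X chromosome (transcript cluster 10605874), had log2 values of 7.05, 7.07 and 6.96 in the room air pools and 9.01, 9.26 and 9.04 in the hyperoxia pools. All hyperoxia pools lay far above all room air pools, and the log2 fold change was 2.08 (standard error 0.09, limma adjusted p = 0.000312). Gadd45g, a small protein induced by growth arrest signals, read 8.77, 8.77 and 8.55 in room air and 10.82, 10.69 and 10.69 in hyperoxia (log2 fold change 2.04). Odc1, ornithine decarboxylase, the first enzyme of polyamine synthesis, read 8.92, 9.14 and 8.84 against 10.90, 11.04 and 11.06 (2.03). In both genes every hyperoxia pool lay far above every room air pool. Spink5, a protease inhibitor of epithelia, rose by 2.00 on the log2 scale, and its room air pools were uneven, from 7.51 to 8.19. Ddias, an inhibitor of apoptosis after DNA damage, rose with a log2 fold change of 1.89, Tubb6, a beta tubulin, with 1.85, and Slc19a2, a thiamine transporter, with 1.78. Further increases were those of Ampd3, an AMP deaminase (1.77), Nes, the intermediate filament nestin (1.76), Wee1, the kinase that holds back entry into mitosis (1.72), and Spry4, a brake on growth factor receptors (1.71).

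Of the genes that the naming rule gave, Kcnj13, Glp1r, Pln and Gbp4 had the largest decreases. Kcnj13, an inward rectifier potassium channel (transcript cluster 10356403, chromosome 1), fell furthest of these. Its log2 values were 10.96, 11.30 and 11.23 in room air and 8.67, 8.59 and 8.64 in hyperoxia. The hyperoxia pools lay within 0.1 of each other and far below every room air pool, with a log2 fold change of -2.53 (standard error 0.10, limma adjusted p = 0.000267). Rtkn2, a marker of type 1 cells, fell with -1.56. Sox11, a transcription factor of development, fell with -1.47, Aox3, an aldehyde oxidase, with -1.45, and Gmnc, a regulator of multiciliated cells, with -1.45. Hmcn1, a hemicentin of the matrix (-1.43), and Vsnl1, a neuronal calcium sensor also made in other cells (-1.43), were brighter genes, with room air values of 12.36 to 12.43 and 11.24 to 11.52. Hdc, which makes histamine, read 10.52, 10.57 and 10.58 in room air against 9.23, 9.13 and 9.12 in hyperoxia (-1.40, standard error 0.06). It was the 1 called gene of 14 markers of mast cells, basophils and eosinophils. Pln, phospholamban of cardiac and smooth muscle, had -1.97 with an adjusted p of 0.0477, and its pools stood in the same order as the means of the cardiac muscle list within each group, at 10.48, 8.44 and 9.06 in room air and 7.20, 7.58 and 7.30 in hyperoxia. Its call was lost without room air pool 3 (adjusted p = 0.118) and without any 1 hyperoxia pool (0.124 to 0.152). The part of cardiac muscle in its change was not tested.

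**Figure D3:**
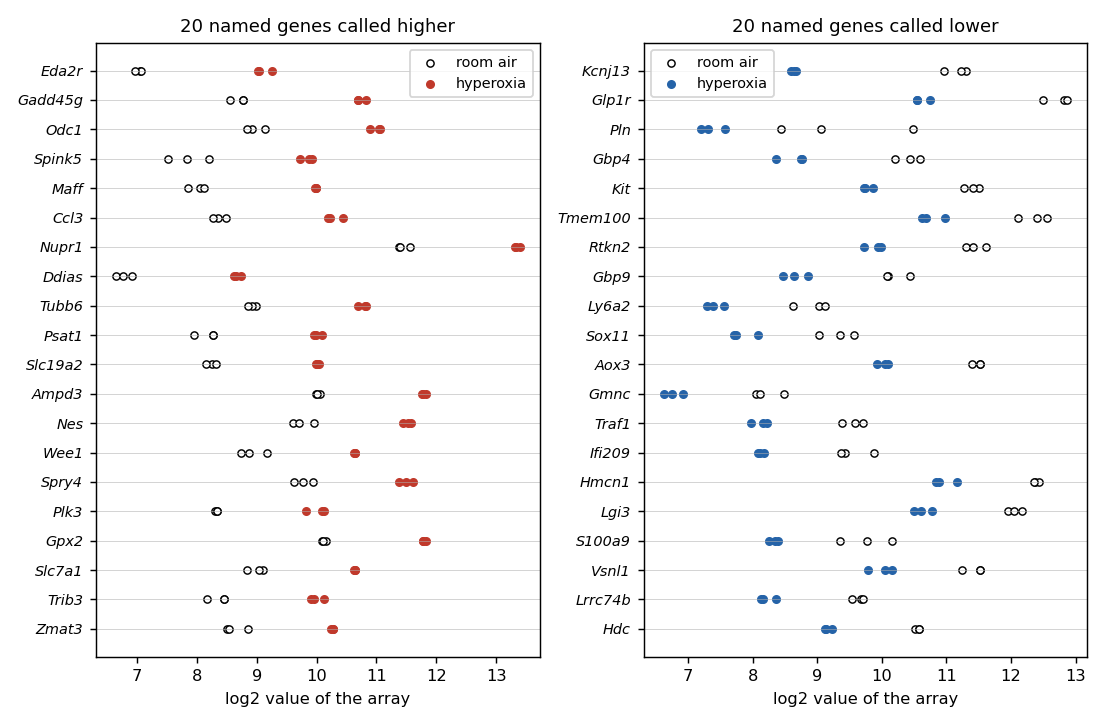
Log2 value in each male pool (horizontal axis) of the 20 genes called higher and the 20 called lower with the largest change under the naming rule, with open points for room air and filled points for hyperoxia. In all 40 genes the 2 groups of pools are separated, as the naming rule required, and Pln and S100a9 have the widest spread in room air.

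Some of the brightest genes on the array also changed. Among the brightest genes that rose were Ftl1, the ferritin light chain that stores iron (13.47 to 13.52 in hyperoxia, log2 fold change 0.57), Timp3, a matrix-bound protease inhibitor (0.61), Actn4 and Tpm4, proteins of the actin cytoskeleton (0.63 and 0.71), and Rbm3, an RNA-binding protein also induced by cold (0.73). Lyve1, a hyaluronan receptor of lymphatic vessels and of some macrophages, rose from 12.40, 12.51 and 12.47 to 13.37, 13.34 and 13.44 (0.92, adjusted p = 0.00105). It was the 1 gene called among 10 of lymphatic endothelium, where Prox1, the factor that defines these vessels, had -0.16. Among the brightest that fell were Lyz1, lysozyme (-1.02), Fmo1, a flavin monooxygenase (-0.88), Scn7a, a sodium channel gene (-0.88), Adgre5, the leukocyte adhesion receptor CD97 (-0.89), and Sec14l3, a lipid-binding protein of airway cells (-0.56).

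Most of the measured antioxidant genes under NRF2 rose, whereas antioxidant enzymes outside that list were called at about the rate of all genes. Of 30 measured regulators and targets of NRF2, 19 were upregulated and 0 downregulated (63.3 percent against 5.25 percent of all genes), with a median log2 fold change of 0.63. Gpx2, a glutathione peroxidase of epithelia, read 10.16, 10.08 and 10.11 in room air and 11.78, 11.77 and 11.83 in hyperoxia (1.68, standard error 0.06, limma adjusted p = 0.000211). Gclc, the catalytic subunit of the enzyme that limits glutathione synthesis, read 12.04, 12.12 and 12.12 against 13.36 in each hyperoxia pool (1.26). Both genes were flat within each group. Cbr3, a carbonyl reductase, rose with 1.47, Nqo1, a quinone reductase, with 1.50, Hmox1, which breaks down haem, with 1.34, and Srxn1, which repairs peroxiredoxins, with 1.89. Nfe2l2, which encodes NRF2 itself, had 0.22 (adjusted p = 0.0825) and Keap1 0.03 (0.852), so neither regulator was called at the RNA level. Of 27 other antioxidant enzymes 2 were higher (7.41 percent) and 1 lower (3.70 against 3.95 percent of all genes), with a median of 0.04. The count of 2 was 3 without room air pool 2 and 1 without any other pool, with the replicate number as a block or with the squamous mean as a covariate. Sod1 had -0.06, Sod2 0.19 and Sod3 -0.18, the superoxide dismutases of cytosol, mitochondria and matrix, and Cat, catalase, had -0.30. None of these 4 was called, although Cat had an adjusted p of 0.0223 with a fold change short of 1.4. Txnip, which binds and inhibits thioredoxin, was the 1 gene of the list that fell, from 12.63, 12.85 and 12.73 to 12.04, 11.87 and 11.92 (-0.79, adjusted p = 0.00282).

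ATF4 targets had the highest share called of the 40 pathway lists, with 26 of 31 upregulated (83.9 percent), 0 downregulated and a median log2 fold change of 0.92. Atf4 itself rose from 9.62, 9.59 and 9.69 to 10.66, 10.71 and 10.74 (1.07, standard error 0.06), and Ddit3, the factor CHOP, rose with 0.74. Nupr1, a stress-induced regulator of transcription, read 11.38, 11.40 and 11.56 in room air and 13.32, 13.34 and 13.39 in hyperoxia (1.91, limma adjusted p = 0.000249). Psat1, the aminotransferase of serine synthesis, rose with 1.85, and Slc7a1, the arginine and lysine transporter, with 1.65. Trib3, a pseudokinase induced by ATF4, read 8.46, 8.18 and 8.45 against 10.12, 9.91 and 9.95 (1.64). In each of the last 4 genes the lowest hyperoxia pool stood more than 1 log2 unit above the highest room air pool. Mthfd2, the mitochondrial folate enzyme, had the largest change of those named, 2.67. Of 27 chaperones and sensors of the endoplasmic reticulum stress response 2 were higher (7.41 percent against 5.25 percent of all genes). Another 2 were lower (7.41 against 3.95 percent), and the median was -0.06. Hspa5, the chaperone BiP that marks this response, was at 12.14, 12.16 and 12.09 in room air and 12.20, 12.18 and 12.14 in hyperoxia (0.04, adjusted p = 0.772). Xbp1 had 0.16 and Atf6 0.31, neither called. Herpud1 (0.69) and Ern1, the sensor IRE1 (0.53), rose, and Ero1b, an oxidase for disulfide bonds (-0.70), and Hsp90b1 (-0.54) fell, the last not called without room air pool 2 (-0.48, short of the fold threshold) or hyperoxia pool 3 (adjusted p = 0.0515). Of 25 further amino acid transporters 6 were higher (24.0 percent against 5.25 percent of all genes) and 3 lower (12.0 against 3.95 percent). The largest changes each way were those of Slc6a14 (0.99), a carrier of neutral and basic amino acids, and Slc7a10 (-0.94).

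Targets of p53 were upregulated in 14 of 27 cases (51.9 percent) and downregulated in none, with a median of 0.64. Phlda3, an inhibitor of AKT, read 10.06, 10.04 and 9.99 in room air and 11.56, 11.58 and 11.57 in hyperoxia (1.54, standard error 0.06, limma adjusted p = 0.000249). Plk3, a stress kinase, rose with 1.68 and Zmat3, an RNA-binding protein of this pathway, with 1.63. Mdm2, the ligase that degrades p53, rose from 10.39, 10.60 and 10.55 to 11.42, 11.38 and 11.41 (0.89). The groups did not overlap in any of these genes, as was so in every called gene. Genes of DNA repair were called at about the rate of all genes, with 2 of 38 higher and 0 lower, near the 5.25 percent of all genes. Rad23b, of nucleotide excision repair, had the larger of these changes (0.66). The count of 2 was 3 without room air pool 2 and 1 without any other pool, with the block or with the squamous covariate.

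Many genes for making ribosomes and for folding new proteins rose. Of 55 genes of ribosome biogenesis 40 were upregulated (72.7 percent), 0 were downregulated and all 55 had a positive log2 fold change, with a median of 0.63. Gnl3, nucleostemin, a GTPase of the nucleolus, had the largest change of the list, from 8.60, 9.06 and 8.77 to 10.34, 10.45 and 10.38 (1.58, standard error 0.12, limma adjusted p = 0.00127). Nop58, a core protein of box C/D small nucleolar ribonucleoproteins, rose with 1.30, Pno1 with 1.28 and Tsr1 with 1.17, the last pair factors of the small subunit. The room air pools of these genes were less even than the hyperoxia pools, and room air pool 2 was the highest of its group in each. Of 59 Rpl and Rps genes, for the proteins of the ribosome itself, 2 were higher (3.39 percent against 5.25 percent of all genes) and 0 lower. Their median was 0.06. Translation factors were upregulated in 11 of 30 cases (36.7 percent), with Eef1e1 at 1.13 and Eif2s2, the beta subunit of eIF2, at 0.99. Chaperones of cytosol and mitochondria were upregulated in 10 of 30 (33.3 percent). Hspa9, mitochondrial HSP70, read 11.12, 11.21 and 11.19 against 12.50, 12.46 and 12.49 (1.31), and Hspd1 and Hspe1, the mitochondrial chaperonin and its partner, rose with 0.74 and 0.69. Of nuclear import and export genes 8 of 37 were higher (21.6 percent), led by Ran (0.99) and the importin Ipo4 (0.93). That count was 5 without room air pool 3, hyperoxia pool 1 or hyperoxia pool 2.

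Small nucleolar RNAs, many of which lie in introns of genes for translation, were chosen for description after their values were seen. Of 52 measured, 9 were higher (17.3 percent against 5.25 percent of all genes) and 3 lower (5.77 against 3.95 percent). Snord16a read 8.82, 9.10 and 8.94 in room air and 9.93, 9.85 and 9.84 in hyperoxia (0.92, limma adjusted p = 0.00217). The array cannot tell a small nucleolar RNA from the intron of its host gene.

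**Figure D4:**
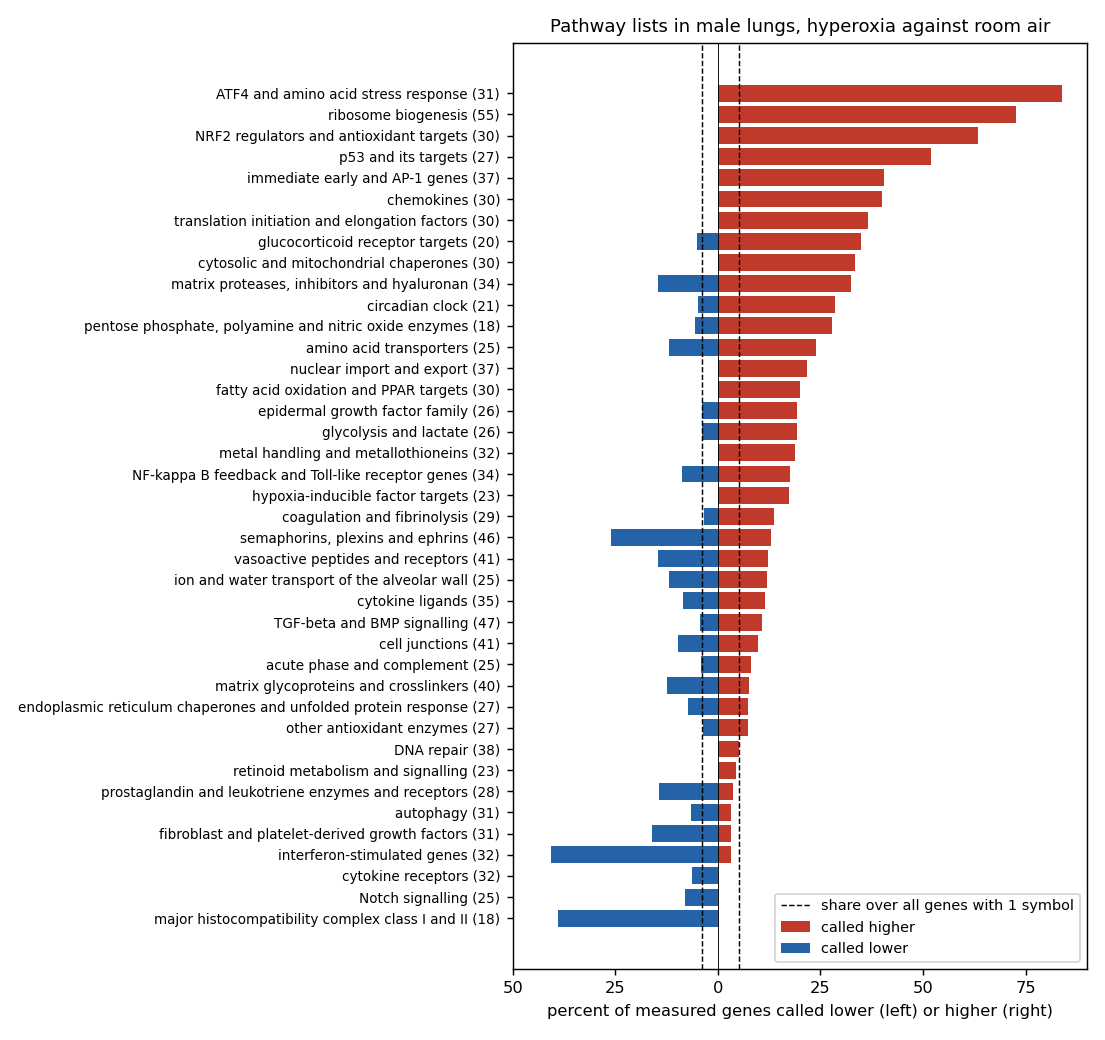
Share of measured genes called lower (left) and higher (right) in each of 40 pathway lists, in percent, with the number of measured genes in brackets and dashed lines at the 3.95 and 5.25 percent of all genes. ATF4 targets, ribosome biogenesis and NRF2 targets have the highest shares to the right, and interferon-stimulated genes and the major histocompatibility complex the highest shares to the left.

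Known binding motifs were looked for in the 250 bases before the start of each gene, for the 15563 genes with a promoter in RefSeq (GRCm38.p6). Both strands were searched, and the motifs were TGACNNNGC for the antioxidant response element that NRF2 binds, TGATGNAA for the composite element of ATF4 and C/EBP proteins, CACGTG for the E-box, TGANTCA for AP-1 and GAANNTTC for the heat shock element. The antioxidant core stood in 10.9 percent of all these promoters, in 14.5 percent of the 822 of genes called higher and in 10.4 percent of the 618 called lower. The E-box stood in 7.04, 11.3 and 6.31 percent. The other motifs differed less, with 2.76, 2.68 and 2.27 percent for the ATF4 element, 6.09, 7.30 and 5.02 percent for AP-1 and 5.89, 4.87 and 5.18 percent for the heat shock element. Within lists, the ATF4 element stood in 3 of 23 promoters of called ATF4 targets (13 percent). The heat shock element stood in 3 of 9 promoters of called chaperones (33.3 percent). The antioxidant core stood in 1 of 15 promoters of called NRF2 targets (6.67 percent), below the 10.9 percent of all promoters. Known elements of NRF2 targets often lie further from the start than this window, and their part in that low share was not tested. The windows below show these elements in capitals with the flanking bases in lower case, on the strand of the gene, at chr3:122245393-122245461 for Gclm, chr7:126625543-126625610 for Nupr1, chr2:119351019-119351086 for Chac1 and chr1:55088034-55088101 for Hspe1. They are shown because these genes rose and hold the element of their own list. In Gclm, Nupr1 and Chac1 the motif reads on the opposite strand.
Gclm: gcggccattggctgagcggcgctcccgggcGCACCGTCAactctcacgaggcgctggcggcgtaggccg
Nupr1: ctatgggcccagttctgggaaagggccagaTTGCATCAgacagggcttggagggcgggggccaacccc
Chac1: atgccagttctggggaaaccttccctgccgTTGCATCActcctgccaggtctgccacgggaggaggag
Hspe1: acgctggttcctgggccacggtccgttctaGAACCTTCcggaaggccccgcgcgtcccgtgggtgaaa
Gclm, the regulatory subunit of the glutathione enzyme, read 10.43, 10.71 and 10.55 in room air and 11.77, 11.77 and 11.66 in hyperoxia (1.17). Chac1, which breaks down glutathione, read 8.74, 8.31 and 8.46 against 10.04, 10.10 and 9.99 (1.54). Both were chosen after their values were seen, and a motif here is a match of letters and not a site shown to be bound.

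Early response genes and metabolic genes were upregulated in part. Of 37 immediate early and AP-1 genes 15 rose (40.5 percent) and 0 fell. Maff, a small Maf protein that partners NRF2 and AP-1 factors, read 7.85, 8.06 and 8.12 in room air and 9.98, 9.98 and 9.99 in hyperoxia (1.98, standard error 0.08). Fos rose with 1.25, Srf, the serum response factor, with 1.20 and Egr2 with 1.03. Polyamine, pentose phosphate and nitric oxide enzymes were higher in 5 of 18 cases (27.8 percent) and lower in 1 (5.56 percent). The shares of all genes were 5.25 and 3.95 percent. Arg2, the mitochondrial arginase, rose with 1.38 and Srm, spermidine synthase, with 1.24, while Oaz2, an antizyme that marks ornithine decarboxylase for decay, fell from 9.67, 9.80 and 9.71 to 8.85, 8.78 and 8.80 (-0.91). Of 26 genes of glycolysis and lactate 5 rose (19.2 percent), led by Slc2a1, the glucose transporter GLUT1 (1.09), and 1 fell (3.85 percent, near the share of all genes). The 1 that fell was not called without room air pool 1 or 3 or without hyperoxia pool 1 or 3. Of 30 genes of fatty acid oxidation and PPAR targets 6 rose, led by Ppargc1a (1.32), a coactivator of mitochondrial genes, and Plin2 (1.00), a coat protein of lipid droplets. Metallothionein genes Mt2 and Mt1, which bind zinc and copper, rose with 2.20 and 2.08, and 6 of 32 genes of metal handling rose in all, Slc39a14, a zinc and iron importer, with 1.17. Of 23 targets of hypoxia-inducible factors 4 rose (17.4 percent against 5.25 percent of all genes). Vegfa, a defining target, stayed at 12.60, 12.56 and 12.60 against 12.61, 12.70 and 12.70 in room air (-0.08, limma adjusted p = 0.470).

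Clock and glucocorticoid target genes also included several that rose. Of 21 clock genes 6 were higher (28.6 percent against 5.25 percent of all genes) and 1 lower (4.76 percent, near 3.95 percent). The rises were led by Nfil3 (1.08) and Bhlhe40 (0.97), both repressors of transcription. Per1, which glucocorticoids also induce, read 9.74, 9.83 and 10.02 in room air and 10.65, 10.65 and 10.63 in hyperoxia (0.78). The sources used here do not give the time of day at which lungs were collected. Of 20 glucocorticoid receptor targets 7 rose (35.0 percent) and 1 fell (5.00 percent, near the share of all genes). The count of 7 was 4 without hyperoxia pool 3. Map3k6 (1.37) and Zbtb16 (0.91) rose, and Aqp1, a water channel of capillary endothelium that the list also holds, fell (-0.64). In autophagy genes 1 of 31 was higher (3.23 percent) and 2 lower (6.45 percent), near the 5.25 and 3.95 percent of all genes, and the lower count was 1 without room air pool 2 or hyperoxia pool 3. The gene that rose was Sqstm1 (0.76), an adaptor that NRF2 also controls. The 1 clock gene that was lower was not called without room air pool 3, hyperoxia pool 1 or hyperoxia pool 3.

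Several chemokines rose, and many interferon-stimulated genes fell in the same lungs. Of 30 chemokines 12 were upregulated (40.0 percent) and 0 downregulated. Ccl3, which attracts monocytes and neutrophils, read 8.35, 8.49 and 8.27 in room air and 10.19, 10.23 and 10.44 in hyperoxia (1.92, standard error 0.10, limma adjusted p = 0.000466). Ccl20 rose with 1.42, Ccl7 with 1.37 and Cxcl5 with 1.10, the last near the bottom of the range with room air values of 6.48 to 6.90. The count of chemokines was 6 without room air pool 3 and 7 without hyperoxia pool 2. Of 35 cytokine ligands 4 rose (11.4 percent against 5.25 percent of all genes) and 3 fell (8.57 against 3.95 percent). Il6, the interleukin of the acute phase, read 5.15, 5.13 and 5.38 in room air, among the dimmest values of the array, and 6.55, 7.07 and 6.75 in hyperoxia (1.57). Tnfsf9, the ligand of 4-1BB, rose with 1.38 and Lif with 1.20, while Flt3l, a growth factor of dendritic cells (-0.89), and Il15, a growth factor of natural killer cells (-0.87), fell. Of 32 cytokine receptors 0 rose and 2 fell (6.25 percent). The latter count was 1 without room air pool 3, hyperoxia pool 2 or hyperoxia pool 3, with the replicate block and with centred arrays. Lifr, the receptor for LIF, read 10.97, 11.19 and 11.12 against 10.21, 10.17 and 10.13 (-0.93). In NF-kappa B and Toll-like receptor genes 6 of 34 rose (17.6 against 5.25 percent of all genes) and 3 fell (8.82 against 3.95 percent). The largest change was that of Traf1, an adaptor of tumour necrosis factor receptors, which fell from 9.38, 9.71 and 9.58 to 8.17, 8.22 and 7.97 (-1.44). Saa3, the acute phase protein of macrophages and epithelium, rose with 1.55.

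Of 32 interferon-stimulated genes 13 were downregulated (40.6 percent against 3.95 percent of all genes) and 1 was upregulated, with a median of -0.37. The count of 13 was 6 without hyperoxia pool 2 and 7 without hyperoxia pool 3. Guanylate-binding proteins, which act against intracellular microbes, were among the genes that fell. Gbp4, which the list does not hold, read 10.43, 10.60 and 10.20 in room air and 8.76, 8.74 and 8.37 in hyperoxia (-1.79, limma adjusted p = 0.00146), and Gbp9, also outside the list, had -1.55. Of the list, Gbp3 had -1.01 and Gbp5 -0.95. Parp14, an interferon-induced ADP-ribosyltransferase, fell with -0.88. Ifi209, an interferon-induced gene of the PYHIN family outside the list, fell with -1.43. The list was not uniform, since Ifit1 had -0.02, Ifit2 0.08 and Mx1 -0.02, and Ifit3 rose from 10.08, 10.69 and 10.39 to 11.75, 11.66 and 11.51 (1.25, adjusted p = 0.00536). Of 18 genes of the major histocompatibility complex 7 fell (38.9 percent) and 0 rose, with a median of -0.41. Ciita, the factor that switches on class II genes, fell from 9.14, 9.20 and 8.99 to 8.55, 8.31 and 8.47 (-0.66), H2-Ab1 with -0.58 and Cd74, the invariant chain, with -0.56. B2m, the light chain of class I, had -0.05. The count of 7 became 4 with each array centred on its median and 2 with array weights, and class II genes are also made by B cells and dendritic cells. The lists of those cells had 5 of 11 and 1 of 14 genes lower, and their part in this result was not tested.

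Some markers of neutrophils and lymphocytes fell, and some of alveolar macrophages rose. Of 12 neutrophil markers 5 were lower (41.7 percent against 3.95 percent of all genes) and 0 higher. The list mean was 8.10 to 8.66 in room air and 7.65 to 7.74 in hyperoxia. S100a9, a subunit of calprotectin, read 10.15, 9.35 and 9.78 in room air, an uneven group, and 8.35, 8.39 and 8.26 in hyperoxia (-1.43, limma adjusted p = 0.00650). Ly6g, Camp and Ngp, which mark maturing neutrophils, had -0.04, -0.08 and 0.06. Of 11 B cell markers 5 were lower, but 0 were called without hyperoxia pool 1 or without hyperoxia pool 2, 2 without hyperoxia pool 3 and 3 without room air pool 1 or 2. The count was 1 with the replicate number as a block and 3 with each array centred on its median. Of 13 T cell and natural killer cell markers 2 were lower (15.4 percent) and 0 higher, Cd3g (-0.50) and Cd2 (-0.56). Each of these genes lost its call in 5 of the 6 fits that left out a pool, both without room air pool 2 or any 1 hyperoxia pool. The count for the list was 0 without room air pool 2, hyperoxia pool 2 or hyperoxia pool 3, 1 without any other pool, and 0 with the replicate number as a block or with the squamous mean as a covariate. Of 16 alveolar macrophage markers 4 rose and 1 fell, with Ctsk, cathepsin K, at 8.61, 9.01 and 8.81 against 10.04, 10.20 and 10.12 (1.31), Marco, a scavenger receptor, at 0.66 and the lipid exporter Abcg1 at -0.59. The count of 4 was 2 without hyperoxia pool 3. Of 14 dendritic cell markers Cd209a alone was called, with -0.66, and of 14 interstitial macrophage markers 0 were called, and likewise 0 of 10 of platelets, 9 of red blood cells or 11 of nerve and neuroendocrine cells. Of 14 adventitial fibroblast markers 0 were called, and of 12 mesothelial markers 1, the keratin Krt19, was called. In bulk RNA, fewer cells of a type and less RNA per cell cannot be told apart.

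Markers of the alveolar epithelium moved in 2 directions. Of 23 type 2 cell markers 9 fell (39.1 percent against 3.95 percent of all genes), with a median of -0.41. Another 1 rose (4.35 percent, near the 5.25 percent of all genes). The list mean was 11.82, 11.95 and 11.87 in room air and 11.48, 11.43 and 11.44 in hyperoxia. Lgi3, a secreted protein of type 2 cells, fell furthest, from 11.95, 12.17 and 12.04 to 10.78, 10.50 and 10.60 (-1.43, standard error 0.10, limma adjusted p = 0.00106). Egfl6 fell with -0.93, Muc1 with -0.83, Lpcat1, which makes surfactant phospholipid, with -0.75 and Abca3, which loads it into lamellar bodies, with -0.69. Of the surfactant proteins Sftpa1 fell from 13.59, 13.69 and 13.64 to 13.09, 13.01 and 13.01 (-0.60), whereas Sftpb had -0.07, Sftpc -0.26 and Sftpd -0.28, none of them called. Ctsh, a protease that processes surfactant protein, was the 1 member that rose (0.62). Of 20 type 1 cell markers 4 rose, Igfbp2, Krt7, Lmo7 and Aqp5 (20 percent against 5.25 percent of all genes). Another 1, Rtkn2, fell (5 percent, near the 3.95 percent of all genes), and Ager had -0.19 and Hopx 0.01. The call of Lmo7 was lost without any 1 pool other than room air pool 2. Krt7 is counted again among the transitional markers below. The list mean of type 1 cells was 11.66 to 11.78 in room air and 11.67 to 11.75 in hyperoxia, fully overlapping.

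Genes known to mark the transitional state between type 2 and type 1 cells rose in 10 of 16 cases (62.5 percent) with 0 lower and a median of 0.88. Krt8, the keratin that gives this state its name, read 11.75, 11.85 and 11.86 in room air and 12.79, 12.79 and 12.81 in hyperoxia (0.97, limma adjusted p = 0.000831), and its partner Krt18 rose with 0.94. Krt19 read 10.69, 10.77 and 10.71 against 11.78, 11.75 and 11.79 (1.05). Cldn4, a tight junction protein, rose with 1.21, Hbegf, a ligand of the epidermal growth factor receptor, with 1.30, Plaur, the urokinase receptor, with 1.49 and Lgals3, galectin 3, with 1.45. Several of these genes are also stress or early response genes in other cells and Nupr1 belongs to the ATF4 list too, so the list is not specific to this cell state in whole lung.

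**Figure D5:**
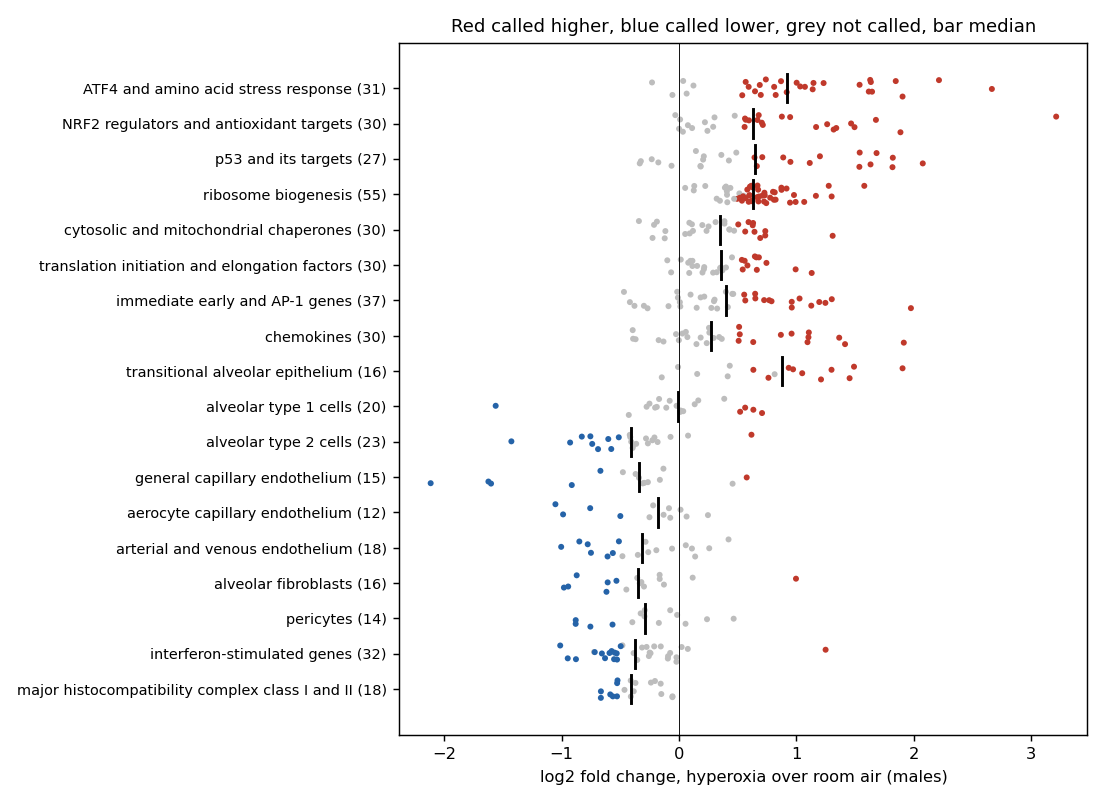
Male log2 fold change, hyperoxia over room air (horizontal axis), for every measured gene of 18 lists, 1 point per gene, with red called higher, blue called lower, grey not called and a black bar at the list median. Stress and ribosome lists lie to the right of 0, endothelial, fibroblast, interferon and histocompatibility lists to the left, and the median of the type 1 cell list lies at 0.

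Endothelial and mesenchymal markers of the alveolar wall fell in part. Of 15 markers of general capillaries 5 fell (33.3 percent against 3.95 percent of all genes) and 1 rose (6.67 percent, near 5.25 percent). Glp1r, the receptor for glucagon-like peptide 1, read 12.49, 12.82 and 12.87 in room air and 10.74, 10.55 and 10.54 in hyperoxia (-2.12, standard error 0.12, limma adjusted p = 0.000701). Kit, the receptor for stem cell factor, fell with -1.62 and Tmem100, a target of BMP signals in endothelium, with -1.60. Gpihbp1, which anchors lipoprotein lipase and defines the list, had -0.16, and Cd93 rose (0.58), so the list did not move as one. Of 12 markers of aerocytes, the capillary cells of gas exchange, 4 fell (33.3 percent), a count of 2 without room air pool 3 or hyperoxia pool 3. Car4, which defines them, had -0.22. Of 18 markers of arteries and veins 7 fell (38.9 percent) and 0 rose. Gja4, a connexin of arterial endothelium, went from 9.55, 10.08 and 9.67 to 8.90, 8.73 and 8.67 and so fell by 1.00 on the log2 scale. Hey1, a target of Notch, fell with -0.78 and Efnb2 with -0.75. Of 25 Notch genes 2 fell (8.00 percent against 3.95 percent of all genes). These were Dll4, the endothelial ligand (-0.78), and its target Hey1. Of 16 alveolar fibroblast markers 6 fell (37.5 percent) and 1 rose (6.25 percent, near the share of all genes), with Scube2 at -0.98 and Wnt2 at -0.87. Of 14 pericyte markers 4 fell (28.6 percent), with Higd1b at -0.88 and Pdgfrb at -0.33, the last not called. Gucy1b1 and Gucy1a1 are among the pericyte markers that fell and are counted again among the vasoactive genes below. Of 13 smooth muscle markers 4 rose (30.8 percent) and 1 fell (7.69 percent). The list means overlapped, at 9.46 to 9.85 in room air and 9.68 to 9.87 in hyperoxia. The member that fell was Pln, described above, with the largest change of the list (-1.97), and it was not called without room air pool 3 or any 1 hyperoxia pool (adjusted p = 0.118 to 0.152). Tagln, transgelin, rose with 1.16, and Acta2, smooth muscle actin, read 12.12, 11.83 and 11.94 against 12.51, 12.65 and 12.56 (0.61).

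Vascular signalling changed on both sides. Of 41 vasoactive peptides, enzymes and receptors 5 rose (12.2 percent against 5.25 percent of all genes) and 6 fell (14.6 against 3.95 percent). The first count was 3 without room air pool 3, hyperoxia pool 1 or hyperoxia pool 2. Edn1, the constrictor endothelin 1, read 9.80, 10.22 and 9.98 in room air and 10.91, 11.01 and 11.12 in hyperoxia (1.01). Bdkrb1, the inducible bradykinin receptor, rose with 1.12 and P2ry2, a receptor for extracellular nucleotides, with 1.06. On the side of cyclic GMP, Gucy1b1 and Gucy1a1, which form the nitric oxide receptor, fell with -0.88 and -0.75, Npr3, the clearance receptor of natriuretic peptides, with -1.21 and Npr2 with -0.67. Calcrl, the shared receptor chain for adrenomedullin and CGRP, fell from 13.34, 13.60 and 13.46 to 12.57, 12.60 and 12.49 (-0.91). Of 29 genes of coagulation and fibrinolysis 4 rose (13.8 percent) and 1 fell (3.45 percent, near the share of all genes). Plau, urokinase, read 7.49, 7.84 and 7.67 against 9.18, 9.27 and 9.12 (1.52), Plat, the tissue plasminogen activator, rose with 1.20, and Thbd, thrombomodulin, fell (-0.85). Of 28 enzymes and receptors of prostaglandins and leukotrienes 1 rose (3.57 percent, below the share of all genes) and 4 fell (14.3 percent). Alox5, the first enzyme of leukotriene synthesis, read 9.01, 8.99 and 9.04 against 8.47, 8.46 and 8.51 (-0.53).

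Lists of growth factors, guidance molecules and matrix genes held genes that rose and genes that fell. Of 26 genes of the epidermal growth factor family 5 rose (19.2 percent) and 1 fell (3.85 percent, near the 3.95 percent of all genes). Nrg1, neuregulin 1, read 8.90, 8.84 and 8.86 in room air and 10.43, 10.45 and 10.44 in hyperoxia (1.57, limma adjusted p = 0.000224), the most even pair of groups among the named genes of that list, while Erbb3, a neuregulin receptor, fell (-0.61). Of 31 fibroblast, platelet-derived and related growth factor genes 1 rose (3.23 percent) and 5 fell (16.1 percent). The falls were led by Fgfr4 (-1.01) and Fgfr2 (-0.73), receptors for fibroblast growth factors. The 5 became 2 without room air pool 3, hyperoxia pool 2 or hyperoxia pool 3, and 3 without hyperoxia pool 1. Of 47 genes of TGF-beta and BMP signalling 5 rose (10.6 percent) and 2 fell (4.26 percent, near the 3.95 percent of all genes), with Fst, the activin inhibitor follistatin, at 1.01 and Bmp6 at -0.86. Of 46 semaphorins, plexins, ephrins and other guidance genes 6 rose and 12 fell (26.1 percent). Epha2 rose from 9.94, 9.82 and 9.88 to 11.26, 11.30 and 11.29 (1.40) and Plxna2 with 1.18, whereas Sema6a fell with -1.15 and Efna1, a ligand of EPHA2, with -0.85. Of 34 matrix proteases, inhibitors and hyaluronan genes 11 rose (32.4 percent) and 5 fell (14.7 percent), and the 11 became 7 without hyperoxia pool 1. Mmp19 rose with 1.33 and Mmp3 with 1.24, while Mmp9, also a neutrophil enzyme, fell (-0.98). Of 40 matrix glycoproteins and crosslinkers 3 rose and 5 fell, with Lox, lysyl oxidase, at 10.01, 10.22 and 10.20 against 11.29, 11.31 and 11.43 (1.20) and Thbs3 at -0.97. The 5 became 3 in all fits that left out a pool other than room air pool 1.

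Transport and contact genes of the epithelium changed gene by gene. Of 25 genes of ion and water transport 3 rose (12.0 percent against 5.25 percent of all genes) and 3 fell (12.0 against 3.95 percent). Aqp5, the water channel of type 1 cells, rose from 11.63, 11.63 and 11.66 to 12.19, 12.16 and 12.13 (0.52), just past the fold threshold, and was not called after another quantile normalization, at 0.47. Slc26a9, a chloride transporter of airway and alveolar epithelium, fell with -0.96. Of 41 junction genes 4 rose and 4 fell (9.76 percent each way), the rises being 2 without room air pool 3, hyperoxia pool 1 or hyperoxia pool 2. Cldn10 (-1.20) and Cldn4 (1.21) had the largest changes. Of 23 genes of retinoid metabolism 1 rose (4.35 percent, near the share of all genes) and 0 fell. The 1 was not called without room air pool 3, hyperoxia pool 1 or hyperoxia pool 2. That list does not hold Lrat, the enzyme that esterifies retinol, which was chosen here after its values were seen and fell with -2.56. The tetraspanins, membrane organisers chosen after their values were seen, had 1 of 19 higher (5.26 percent) and 5 lower (26.3 percent). Tspan18 read 11.69, 11.95 and 11.87 in room air and 10.73, 10.66 and 10.65 in hyperoxia (-1.16), and Tspan4 rose with 1.14. Calls were rare in large families of chemosensory receptors, with 2 higher and 2 lower of 1027 olfactory receptors and 0 of 169 vomeronasal receptors. Both families were dim, with median log2 values of 5.70 and 5.00, a level at which calls were rare among all genes.

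MicroRNA loci were read by 291 clusters with 1 symbol, of which 2 were higher (0.687 percent against 5.25 percent of all genes) and 6 lower (2.06 against 3.95 percent). Calls were rarer here than over all genes, but the clusters were dim, with a median log2 value of 6.88. Of all genes between 6 and 7, 0.316 percent were higher and 0.407 percent lower, so calls were not rarer than among genes of like level. These clusters measure the precursor or its host transcript and not the mature microRNA, and they were chosen after their values were seen. The mature products that the loci encode are given from RefSeq (GRCm38.p6) with bases 2 to 8, the seed by which a microRNA finds its targets, in capitals, since these letters show which loci share a seed.
mmu-miR-34a-5p: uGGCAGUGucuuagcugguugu
mmu-miR-708-5p: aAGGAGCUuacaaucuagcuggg
mmu-miR-15a-5p: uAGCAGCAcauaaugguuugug
mmu-miR-16-5p: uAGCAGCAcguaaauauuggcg
mmu-miR-181b-5p: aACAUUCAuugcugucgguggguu
mmu-miR-505-3p: cGUCAACAcuugcugguuuucu
Mir34a, a known p53 target on chromosome 4, read 6.55, 6.61 and 6.52 in room air and 7.95, 7.89 and 7.67 in hyperoxia (1.28, standard error 0.09, limma adjusted p = 0.00106). Mir708 rose with 0.83. Mir15a and Mir16-1, neighbours on chromosome 14 with the same seed, both fell. Mir15a read 9.84, 10.01 and 9.92 against 9.20, 9.20 and 9.06 (-0.77), and Mir16-1 had -0.53, a call lost without any 1 pool other than room air pool 1 (adjusted p = 0.0502 to 0.113). The loci of miR-181b on chromosomes 1 and 2, which give the same mature sequence, had -0.94 for Mir181b-1 and -0.60 for Mir181b-2. The call of Mir181b-1 was lost without room air pool 3 (adjusted p = 0.0636) or any 1 hyperoxia pool (0.0582 to 0.0647). Mir505 on the X chromosome fell from 10.80, 10.65 and 10.66 to 9.94, 9.88 and 9.76 (-0.84). Mir701, the dimmest of the 6, had -0.71 with an adjusted p of 0.0499, and without any 1 pool other than room air pool 1 it was 0.0708 to 0.151.

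Whether males responded differently from females was tested with all 12 arrays, as the difference of their log2 fold changes, male minus female. At an adjusted p under 0.05 from limma 0 of 35556 clusters were called, 516 had an unadjusted p under 0.05, and the smallest adjusted p was 1.00. Of the 1047 genes upregulated in males 1046 had a positive log2 fold change in females, and of the 788 downregulated 786 had a negative one. Eda2r had 2.08 in males and 1.84 in females, and Gadd45g 2.04 and 1.74. Both were named for their large male increases, and neither interaction was called, so these values do not show a stronger response in males. Of all genes 262 had an unadjusted limma interaction p under 0.05, 84 of them among the 1835 called genes, and none passed adjustment. The called genes were chosen by their male fold change, which is part of the interaction, so their share cannot be compared with that of all genes. A p that misses the threshold does not show that the responses were equal.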

How the data were processed

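The authors deposited log2 values per transcript cluster, made by Robust Multichip Average (background correction, quantile normalization over the arrays and a summary of the probes), in a version that the sources used here do not give. They were used as deposited for 35556 clusters, with 0 unused columns. The platform annotation gave 1 symbol for 21789 clusters (19938 genes), several for 1621, and did not list 12146. Where clusters shared a symbol, that with the highest mean over the 6 male arrays stood for the gene. The means of the male groups were fitted with limma 3.58.1 in R 4.3.3 (lmFit, eBayes) on the 6 male arrays, with Benjamini-Hochberg adjustment over all clusters. A fold change of at least 1.4 and an adjusted p under 0.05 made a call. The interaction used 12 arrays and 4 group means. Each array is a pool of RNA, and nothing in the sources says that pools were drawn from separate exposures, so p-values measure the spread between pools. Precision is limited by the number of arrays, and scan dates were not used here.

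Genes named are the 20 called genes each way with the largest change and no overlap between pools, the 10 brightest called genes each way, up to 6 called members each way of 65 lists (40 of pathways and 25 of cell markers), and uncalled members that define a list. Genes that the study names, and genes known from earlier results of these data, were left out of the first 2 choices. The members, lists and rule were chosen with earlier results of these data known. A list is described by its counts and median beside those of all genes, with no test of the list. Some genes, such as Calcrl, Efnb2 and Gja4, belong to more than 1 list and are counted in each, so the lists are not separate results. Alternatives were all 12 arrays in the fit, the replicate number as a block, other variance moderation, array weights, other normalization, a filter on dim clusters, other ways to take 1 value per gene, other thresholds, the squamous mean as a covariate, and leaving out each array. The fit was tested on simulated data.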

Additional observations from a re-analysis of the deposited data

How the results depend on the processing

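Called clusters numbered 1364 higher and 1151 lower, and genes 1047 and 788. These counts moved by over 1.5 times only with another fold rule. Without a fold threshold 2758 clusters were higher and 2530 lower (2078 and 1837 genes), at 2-fold or more 236 and 192 (203 and 87 genes), and with limma's treat 240 and 153 (213 and 76 genes). Leaving out 1 male pool gave 1057 to 1701 clusters higher and 792 to 1437 lower. With the squamous mean as a covariate 1247 clusters were higher and 1024 lower. Centring arrays on the median gave 1590 and 945. Array weights gave 1762 and 1593, from weights that had not converged. The limma interaction called 0 clusters under every alternative run, with 386 to 1052 at an unadjusted p under 0.05. No named gene reversed its sign under an alternative where it was called in the main fit or in that alternative. Sign changes of named genes called in neither were not counted. Replicate numbers are shared by the groups, and deviations of same-numbered pools correlated with -0.17, 0.33 and 0.23. Pools of different numbers had -0.46 to 0.40. With 3 pools per group these values cannot show whether the numbers pair the pools. With the replicate number as a block 1263 clusters were higher and 1027 lower (974 and 690 genes). The interaction with the block also called 0 clusters. Depth does not apply to arrays. Genes near the bottom of the log2 range, such as Il6 in room air, lie close to background, where fold changes are understated.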
